A study of Mus musculus with 8 samples.

Results

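Transcripts of 10 genes of the AP-1, BATF and IRF4 transcription factors were measured in stimulated mouse T lymphoma cells with and without T-bet and GATA3. The genes were the Fos family (Fos, Fosb, Fosl1 and Fosl2), the Jun family (Jun, Junb and Jund), Batf, Batf3 and Irf4. They are 10 of the 54146 genes with values, and the rule names them by symbol, not by a measured value, although it was set with earlier results of these data known. Jun and Junb were higher in the 4 libraries with T-bet than in the 4 libraries without it, about 3.03-fold and 1.44-fold on average. The other 6 genes that could be tested did not pass the threshold for T-bet, and no member passed it for GATA3.

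AP-1 is a dimer of basic leucine zipper (bZIP) proteins, in most cases a Fos protein paired with a Jun protein, which binds the palindrome TGAGTCA. In T cells it is a nuclear end point of antigen receptor signalling, where protein kinase C and the MAP kinases raise Fos and Jun activity and AP-1 joins NFAT at cytokine genes such as Il2. BATF and BATF3 lack the transactivation domains of Fos, take its place beside a Jun protein, and recruit IRF4 to composite sites where an AP-1 motif lies beside an IRF motif. T-bet, encoded by Tbx21, directs the TH1 fate of helper T cells, and GATA3 directs the TH2 fate.

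RNA was taken from EL4 cells, a T lymphoma line of a C57BL/6 mouse, in which the proteins were expressed from introduced constructs. The GFP + Plum line carried only the control fluorescent proteins. The T-bet + Plum line expressed FLAG-T-bet, the GFP + GATA3 line HA-GATA3, and the T-bet + GATA3 line both factors. Whether the factor constructs also carried a fluorescent reporter is not given for these lines in the sources used here. All 4 lines have the endogenous Gata3 gene, and all were stimulated for 4 h with the phorbol ester PMA at 50 ng/ml and the calcium ionophore ionomycin at 1 μM. No unstimulated cells were analysed here, so the response of any member to stimulation was not measured. There are 2 libraries per line and 8 in all. The study defines biological replicates as harvests of the same line on different days, so the spread between replicates is that between harvests of 1 line, and a difference between lines cannot be told apart from other differences between the cultures that carry the constructs. The legends of the study give a larger n than the libraries analysed here.

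Total estimated counts were between 8038565 and 16003519 per library, with the lowest in T-bet + Plum 1. Mitochondrial genes held between 2.24% and 2.88% of the counts. Levels between libraries are given as CPM, counts per 1000000 counts of the scaled library. Tbx21 had means of 144 and 147 CPM in the 2 lines with FLAG-T-bet and of 2.68 and 2.11 CPM in the others. Gata3 had means of 304 CPM in GFP + GATA3, 184 CPM with both factors, 46.5 CPM in the control line and 30.3 CPM with T-bet alone. Summed T cell markers were between 2938 and 3473 CPM in every library, whereas summed B cell markers were at most 1.24 CPM and summed myeloid markers at most 4.40 CPM. Of the T cell markers, Cd247, a chain of the T cell receptor complex, had at most 10 counts in any library. Cd79b was at 0 everywhere. Fibroblast and epithelial markers were between 3.11 and 5.73 CPM with T-bet and between 12.0 and 24.9 CPM without it, nearly all of it Pdgfra, and Epcam, Krt8 and Cdh1 were at 0. The part of Pdgfra-expressing cells in the results below was not tested. In bulk RNA, more cells expressing a gene and more RNA per cell cannot be told apart.

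Levels were first compared between genes in TPM (transcripts per 1000000), which corrects for transcript length. Irf4 had the highest mean TPM over the 8 libraries, 58.5, followed by Junb at 47.6 and Jund at 37.4. A second group followed at a much lower level, Fosl2 at 7.44 TPM, Fosb at 6.82 TPM and Batf at 6.48 TPM. Fos was at 2.85 TPM and Jun at 1.56 TPM, so the genes that give AP-1 its best known subunits were the lowest of the 8 that could be tested. This ranking holds for 4 h of stimulation, and no other time was analysed here. Ranges over libraries did not overlap between Jund and Fosl2, nor between Batf and Fos. All other neighbours among these 8 overlapped: Irf4 spanned 49.5 to 72.9 TPM and Junb 37.2 to 58.4 TPM.

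Batf3 and Fosl1 were close to absent. Batf3, which encodes the BATF relative BATF3, had 11 estimated counts in all 8 libraries together and at most 3 in any library. Fosl1, which encodes FRA-1, had 1 count in all. A count of 3, the upper limit that a count of 0 allows, corresponds to between 0.187 and 0.373 CPM in these libraries. Neither gene passed edgeR's filter on low counts, and no difference in them was detectable at this depth. The other 8 members passed it, with at least 17 counts in every library.

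**Figure D1:**
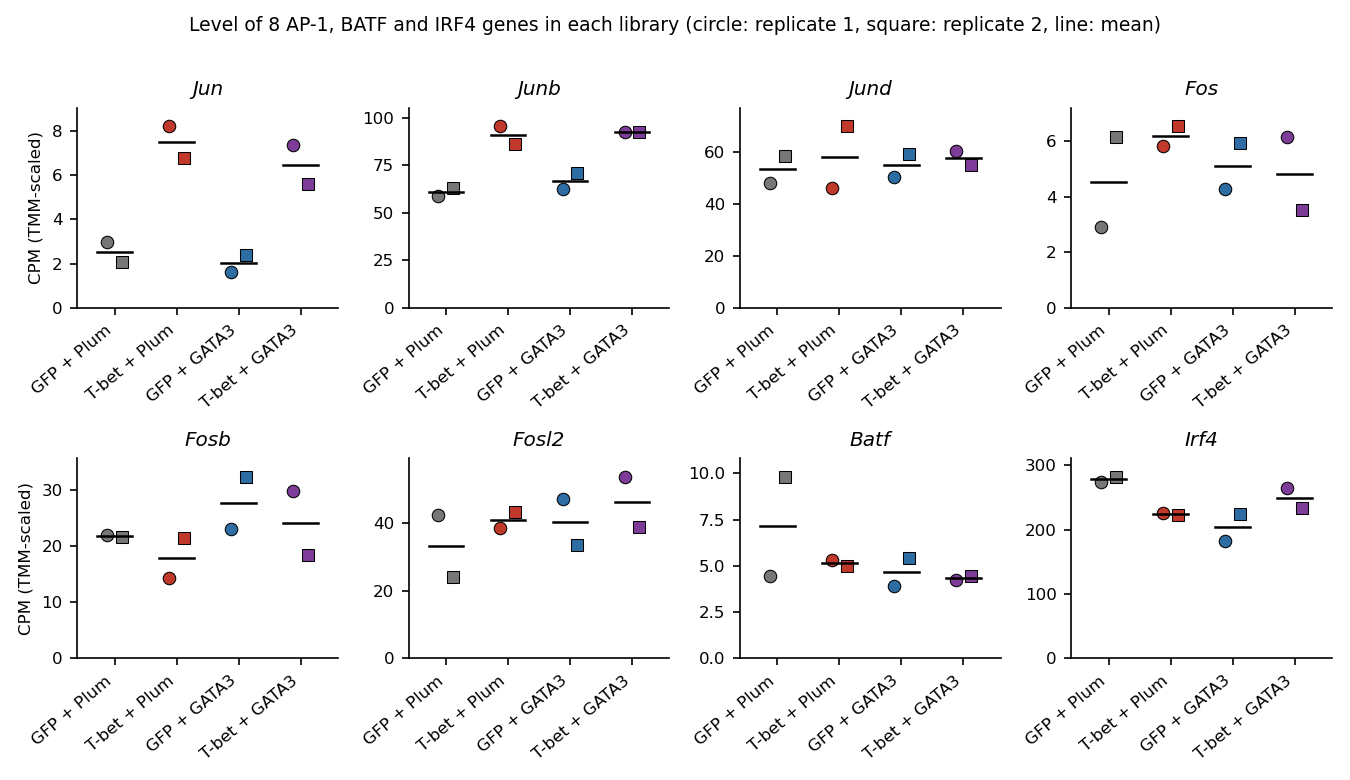
Levels of the 8 tested members in CPM on TMM-scaled library sizes, with a separate linear axis from 0 for each gene. Each point is a library of one of the 4 lines and each line marks the mean of 2 libraries; Jun sits between 1.62 and 2.97 CPM without T-bet and between 5.58 and 8.20 CPM with it, and Junb between 58.7 and 70.8 CPM without and between 86.2 and 95.5 CPM with it.

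Jun (ENSMUSG00000052684.4, GRCm38 chromosome 4, 95049034 to 95052222, minus strand) is a gene of a single exon that encodes c-Jun, the strongest activator of its family. It was at 2.97 and 2.09 CPM in the GFP + Plum libraries and at 1.62 and 2.41 CPM in GFP + GATA3. With T-bet it was at 8.20 and 6.76 CPM in T-bet + Plum and at 7.34 and 5.58 CPM in T-bet + GATA3. Each of the 4 libraries with T-bet was above each of the 4 without it. The values rest on few reads, between 17 and 99 estimated counts per library. Averaged over the lines without and with HA-GATA3, the T-bet effect on Jun, as a log2 fold change (FC), was 1.60 (standard error 0.23, edgeR FDR = 0.00267).

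Junb (ENSMUSG00000052837.6, chromosome 8, 84974484 to 84978718, minus strand) encodes JunB, a weaker activator that is known as a main Jun partner of BATF in helper T cells. It was at 58.7 and 62.9 CPM in GFP + Plum and at 62.5 and 70.8 CPM in GFP + GATA3. It was at 95.5 and 86.2 CPM in T-bet + Plum and at 92.6 and 92.5 CPM in T-bet + GATA3. Again every library with T-bet was above every library without it. The averaged log2 FC was 0.53 (standard error 0.086, edgeR FDR = 0.00533), on between 654 and 1393 counts per library.

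Jund (ENSMUSG00000071076.6, chromosome 8, 70698949 to 70700616, plus strand) encodes JunD, which is made in most resting cells. It was at 48.1 and 58.3 CPM in the GFP + Plum line, 46.0 and 69.8 CPM in T-bet + Plum, 50.5 and 59.3 CPM in GFP + GATA3, and 60.2 and 54.9 CPM in T-bet + GATA3. The range without T-bet lay within the range with it. The averaged T-bet log2 FC of Jund was 0.10 (95% interval -0.24 to 0.43, edgeR FDR = 0.713). The interval of Junb was 0.33 to 0.72, which overlaps it, and the difference between the 2 genes was not tested.

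Of the 8 members tested, 2 were called for the averaged T-bet effect at an FDR of at most 0.05, both upwards. Among all 14791 genes tested the share called was 15.2%, which would correspond to about 1 gene in 8, so the number of members called is near that background. The same 2 were the only members whose CPM did not overlap between the libraries with and without T-bet, a separation that 22.7% of all genes showed in one direction or the other. The median log2 FC of the 8 members was 0.14, beside 0.02 for all genes tested.

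Within the Jun family, Jun remained a small part. Jun made up between 0.765% and 1.47% of the family's TPM in the libraries without T-bet and between 2.001% and 3.04% in those with it. The summed TPM of the family was between 75.1 and 89.7 without T-bet and between 87.7 and 100.7 with it, 2 ranges that overlapped. The ratio of Junb to Jund TPM was between 0.991 and 1.14 without T-bet, and was 1.91, 1.13, 1.41 and 1.55 in the libraries with it. The value for T-bet + Plum 2, 1.13, lay among those without T-bet, and Jund was at its highest CPM in that library.

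**Figure D2:**
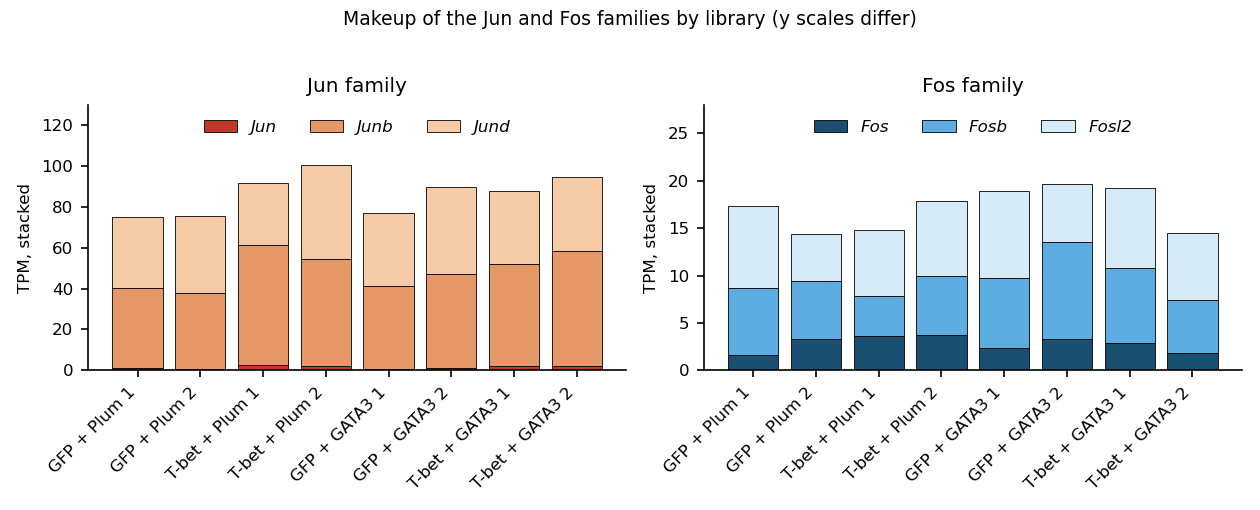
TPM of the Jun family (left) and of the Fos family (right) in each library, stacked by gene on linear axes that differ between the panels. Jun is the thin band at the base of the left panel, at most 3.04% of its family, and the Fos family adds up to between 14.4 and 19.7 TPM. Both GFP + GATA3 libraries, at 19.0 and 19.7 TPM, lie above those of GFP + Plum and T-bet + Plum. The T-bet + GATA3 libraries, at 19.2 and 14.5 TPM, overlap every other line.

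The bases upstream of Jun and Junb are shown because these 2 members rose together. They are the 250 bases before the RefSeq start on GRCm38.p6, in the direction of the gene, at chr4:95052223-95052472 and chr8:84978749-84978998, both on the minus strand. Capitals mark matches on either strand to 6 motifs: the AP-1 site TGAGTCA, the CRE TGACGTCA, the pair of variants known from the Jun promoter, TGACATCA and TTACCTCA, the T-box core GGTGTGA, and GATA, searched as AGATAA and as the versions of it that begin with T, end in G, or both.
Jun: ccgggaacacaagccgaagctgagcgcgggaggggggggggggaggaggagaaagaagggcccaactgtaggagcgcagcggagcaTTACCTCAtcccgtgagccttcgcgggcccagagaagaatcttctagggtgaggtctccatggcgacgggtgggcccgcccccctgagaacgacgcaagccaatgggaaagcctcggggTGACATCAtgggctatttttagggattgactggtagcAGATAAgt
Junb: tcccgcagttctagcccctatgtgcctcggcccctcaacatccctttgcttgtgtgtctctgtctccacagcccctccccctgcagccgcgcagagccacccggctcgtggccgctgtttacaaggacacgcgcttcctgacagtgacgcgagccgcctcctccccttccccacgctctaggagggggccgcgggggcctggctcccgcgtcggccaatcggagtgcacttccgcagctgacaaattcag
Jun held TGACATCA between 45 and 38 bases before the start and TTACCTCA between 164 and 157 bases before it, the variants at which c-Jun with ATF2 is known to act on its own gene. Of 32851 windows of the same length, 2.93% held the former and 0.728% the latter. Jun also held AGATAA between 8 and 3 bases before the start, and 26.5% of all windows held a GATA match. The window of Junb matched none of the 6 motifs, which says only that these letters are not in it. The T-box core, in 3.33% of all windows, and the AP-1 site, in 4.46%, were in neither. RefSeq windows were given for 9 of the 10 members, all but Fosl1, and among the other 7 the only match was a GATA match at Batf.

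Genes on the opposite strand overlap all 3 Jun genes, and whether reads were counted by strand is not given in the sources used here. Junos, an antisense RNA, shares 232 of the 3189 exonic bases of Jun. It had 49 and 16 counts in GFP + Plum, 28 and 32 in T-bet + Plum, 14 and 25 in GFP + GATA3, and 22 and 51 in T-bet + GATA3. In GFP + Plum replicate 1 this was more than the 48 counts of Jun, and in the 7 others it was fewer. Its groups overlapped, and its averaged log2 FC of 0.72 was not called (edgeR FDR = 0.251). Reads from the shared bases cannot be told apart. Prdx2, a peroxiredoxin gene whose 3′ end runs into the extent of Junb, had an averaged log2 FC of 0.52 (edgeR FDR = 0.00646), close to that of Junb. It overlaps only a second Junb model of 492 bases, which had 0 counts in every library. All counts of Junb were on the model of 1809 bases, which shares 0 bases with Prdx2. Gm11175 shares 877 of the 1668 bases of Jund but had at most 4 counts.

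Fos (ENSMUSG00000021250.13, chromosome 12, 85473890 to 85477273, plus strand) encodes c-Fos, the short-lived partner of Jun that rises within minutes of stimulation in many cells. It was at 2.90 and 6.14 CPM in the GFP + Plum line, 5.84 and 6.55 CPM in T-bet + Plum, 4.30 and 5.95 CPM in GFP + GATA3, and 6.15 and 3.52 CPM in T-bet + GATA3. The control libraries alone spanned a log2 difference of 1.04, almost as wide as the range over all libraries. The averaged T-bet log2 FC was 0.17 (95% interval -0.50 to 0.85, edgeR FDR = 0.747), so at this spread neither a moderate rise nor a moderate fall was detectable.

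Fosb (ENSMUSG00000003545.3, chromosome 7, 19302696 to 19310051, minus strand) encodes FosB, a relative of c-Fos with its own activation domain. It was at 22.0 and 21.7 CPM in the GFP + Plum line and 14.3 and 21.5 CPM in T-bet + Plum. It was at 23.0 and 32.4 CPM in GFP + GATA3 and 29.8 and 18.5 CPM in T-bet + GATA3. The range of T-bet + GATA3 overlapped that of every other line, and the other lines did not overlap each other. Fosb was lower in both T-bet + Plum libraries than in GFP + Plum, narrowly in replicate 2. It was higher in both GFP + GATA3 libraries than in GFP + Plum. Its averaged log2 FC was -0.24 (95% interval -0.70 to 0.22) for T-bet and 0.38 (-0.08 to 0.84) for GATA3, with edgeR FDRs of 0.476 and 1.0.

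Fosl2 (ENSMUSG00000029135.10, chromosome 5, 32135801 to 32157842, plus strand) encodes FRA-2, a Fos relative without a strong activation domain that is known to restrain part of the TH17 program. It was at 42.4 and 24.01 CPM in the GFP + Plum line, 38.5 and 43.1 CPM in T-bet + Plum, 47.1 and 33.4 CPM in GFP + GATA3, and 53.6 and 38.7 CPM in T-bet + GATA3. One GFP + Plum library was the lowest of the 8, and the other lay within the range of the remaining lines. The averaged T-bet log2 FC was 0.25 (95% interval -0.23 to 0.72, edgeR FDR = 0.479). Between 5.33% and 15.1% of Fosl2 counts were on models without a coding sequence.

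Summed over the family, Fos genes were at between 14.4 and 19.7 TPM, and the Jun family exceeded them by a factor of between 4.07 and 6.53 in each library. This ratio was between 4.07 and 5.24 without T-bet, and was 6.20, 5.62, 4.56 and 6.53 with it. The T-bet + GATA3 1 library, at 4.56, lay within the range without T-bet.

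Batf (ENSMUSG00000034266.6, chromosome 12, 85686669 to 85709087, plus strand) encodes BATF, which with JunB and IRF4 opens chromatin in activated T cells. It was at 4.45 and 9.82 CPM in the GFP + Plum line, 5.34 and 4.98 CPM in T-bet + Plum, 3.92 and 5.44 CPM in GFP + GATA3, and 4.21 and 4.45 CPM in T-bet + GATA3. The 7 libraries other than GFP + Plum 2 were between 3.92 and 5.44 CPM. The GFP + Plum libraries differed by a log2 of 1.12, the largest replicate difference of any tested member, where the median over all genes in that line was 0.29. The averaged log2 FC was -0.29 (95% interval -0.91 to 0.33, edgeR FDR = 0.525) for T-bet and -0.42 (-1.04 to 0.20, edgeR FDR = 1.0) for GATA3. Without GFP + Plum replicate 2 the former was 0.04.

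Irf4 (ENSMUSG00000021356.10, chromosome 13, 30749226 to 30766976, plus strand) encodes the interferon regulatory factor that lymphocytes raise with the strength of receptor signals and that BATF and Jun dimers bring to composite sites. It was at 275 and 283 CPM in the GFP + Plum line, 226 and 223 CPM in T-bet + Plum, 182 and 225 CPM in GFP + GATA3, and 264 and 234 CPM in T-bet + GATA3. Both control libraries were above all other libraries. In the pairwise comparisons its log2 FC was -0.31 for T-bet + Plum versus GFP + Plum (unadjusted p = 0.0476, edgeR FDR = 0.251) and -0.45 for GFP + GATA3 versus GFP + Plum (unadjusted p = 0.00965, edgeR FDR = 0.845). For T-bet + GATA3 versus GFP + Plum it was -0.16 (edgeR FDR = 0.607). The interaction of T-bet and GATA3, the difference between the T-bet effect with HA-GATA3 and that without it, was 0.60 (standard error 0.19, unadjusted p = 0.0130, edgeR FDR = 1.0). None of these passed the threshold. The averaged T-bet log2 FC was -0.01 (95% interval -0.23 to 0.21), the mean of a lower value without HA-GATA3 and a higher one with it, 0.29 for T-bet + GATA3 versus GFP + GATA3 (edgeR FDR = 0.289).

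**Figure D3:**
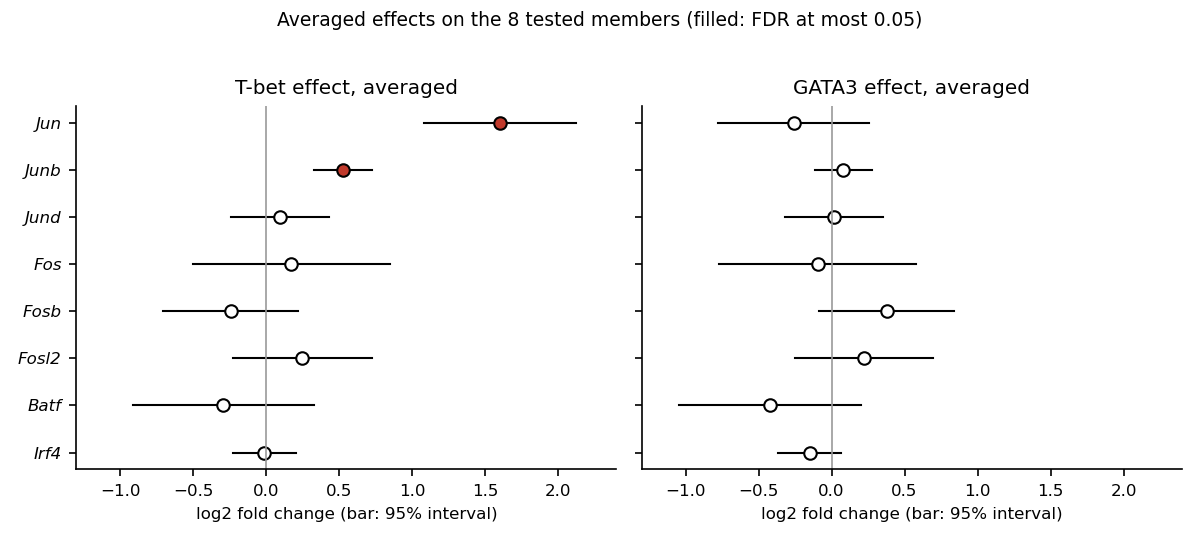
Averaged log2 FC of each tested member for T-bet (left) and for GATA3 (right), with 95% intervals from the edgeR fit of all 8 libraries; filled points have an FDR of at most 0.05. Only Jun at 1.60 and Junb at 0.53 are filled, both for T-bet, and every interval for GATA3 includes 0.

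The effect of T-bet on Jun and Junb was next followed comparison by comparison. In T-bet + Plum versus GFP + Plum, where 6.2% of genes were called, 2 of the 8 members were called. For Jun the value was 1.55 (SE 0.31, edgeR FDR = 0.0264) and for Junb it was 0.58 (SE 0.12, edgeR FDR = 0.0304), both log2 FC. The call of Jun was lost without either T-bet + Plum library or without GFP + Plum replicate 2, at an edgeR FDR of up to 0.137. The call of Junb was lost without any one library of these 2 lines or of GFP + GATA3, at up to 0.165.

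In T-bet + GATA3 versus GFP + GATA3, where 5.77% of genes were called, 1 member was called. The log2 FC of Jun was 1.65 (SE 0.33, edgeR FDR = 0.0237), and Junb had 0.47 (edgeR FDR = 0.0641) and did not pass. Jun was no longer called without either GFP + GATA3 library or without T-bet + GATA3 replicate 1, at an edgeR FDR of up to 0.161. In T-bet + GATA3 versus GFP + Plum, where 4.87% of genes were called, Junb passed with 0.61 (edgeR FDR = 0.0289), and not when any one of the 8 libraries was left out, whereas Jun had 1.34 (edgeR FDR = 0.0535). These comparisons share libraries and are not independent of each other. The averaged effect, which uses all 8 libraries, was called for Jun and for Junb in each of the 18 alternative fits, with an edgeR, DESeq2 or limma FDR of at most 0.0140 for Jun and 0.0442 for Junb.

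Adding HA-GATA3 gave no call of a member by edgeR, DESeq2 or limma. In GFP + GATA3 versus GFP + Plum, 0.0203% of all genes were called, and the log2 FC was -0.31 for Jun and 0.13 for Junb. One member, Irf4, had an unadjusted p below 0.05. Where HA-GATA3 was added to T-bet, 0.0338% of genes were called, and Jun and Junb had log2 FCs of -0.21 and 0.03, the latter of either sign depending on the scaling. For the GATA3 effect averaged over the lines without and with FLAG-T-bet the share was 0.0608%, and 95% intervals for Jun ran from -0.78 to 0.26 and for Junb from -0.12 to 0.28. For Fos the averaged GATA3 value was -0.10, for Fosl2 0.22, for Irf4 -0.15 and for Jund 0.01.

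The interaction was called for 0% of genes by edgeR, 0 of 14791, with 381 genes at an unadjusted p below 0.05, of which 1, Irf4, was a member. DESeq2 called 14 genes and limma 1, none of them a member. Its value was 0.09 for Jun (95% interval -0.93 to 1.12) and -0.11 for Junb (-0.50 to 0.29). The interval for Jun thus allows a difference between the 2 backgrounds of about 1 on the log2 scale in either direction.

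Other bZIP proteins that can pair with Fos or Jun proteins were examined as a list of 17 genes, of which 15 could be tested. For the averaged T-bet effect 2 rose, 2 fell and 11 were not called, beside 15.2% called among all genes. Lists were counted again, a choice made after the values were seen, over the genes at the filter's level in at least 2 libraries both with and without T-bet. This left out Jdp2, and 1 rose, 2 fell and 11 were not called. The list's median log2 FC was 0.09 beside 0.02 for all genes, and Batf2 and Atf3 were too low to be tested. Jdp2, which encodes a Jun dimerization protein known as a repressor of AP-1 sites, had few counts. They were 3 and 2 in GFP + Plum, 10 and 69 in T-bet + Plum, 1 and 4 in GFP + GATA3, and 12 and 28 in T-bet + GATA3. Together these were 119 counts with T-bet and 10 without it, a ratio per library size of 14.7 with a counting interval of 7.74 to 31.5. Of the 119 counts, 69 came from T-bet + Plum replicate 2. Its call (edgeR FDR = 0.00420) is that of a gene that passed the filter only through the lines where it was high.

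Jdp2 lies between 2 members on chromosome 12, at 85599027 to 85639878 on the plus strand. It starts 122 kb after the end of Fos and ends 46.8 kb before the start of Batf, all on the same strand. Neither neighbour was called for T-bet, with averaged log2 FCs of 0.17 and -0.29.

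Crem encodes relatives of CREB that include the early repressor ICER. It was between 12.4 and 17.9 CPM without T-bet and between 25.1 and 40.6 CPM with it, and its log2 FC was 1.23 (SE 0.14, edgeR FDR = 0.00100). Maff, a small Maf protein, fell by 0.92 (edgeR FDR = 0.00436), from between 14.0 and 14.8 CPM to between 5.47 and 8.63 CPM. Nfe2l2, which encodes the oxidative stress factor NRF2, fell by 0.78 (edgeR FDR = 0.0154), a call lost without T-bet + Plum replicate 1 or T-bet + GATA3 replicate 1 at an edgeR FDR of up to 0.0652. The bZIP genes of highest TPM were Atf4, at a mean of 605 TPM with a log2 FC of 0.39 (edgeR FDR = 0.0638), and Nfe2l1, at 75.6 TPM with 0.29 (edgeR FDR = 0.0581).

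The other IRF genes were a list of 8, of which 6 could be tested. Of these 5 rose with T-bet, with a median log2 FC of 1.16, and without Irf7, which passed the filter only through the lines with T-bet, 4 of 5 rose, with a median of 0.99. Of all genes tested, 15.2% were called in either direction, with a median of 0.02. Irf4 itself had log2 FCs of -0.31 without HA-GATA3 and 0.29 with it, neither called. Irf8, the closest relative of Irf4, was between 10.1 and 27.5 CPM without T-bet and between 68.9 and 161 CPM with it, and its log2 FC was 2.43 (SE 0.42, edgeR FDR = 0.00727). Irf1, a classical interferon-induced activator, rose by 1.33 on the log2 scale (edgeR FDR = 0.000238) and Irf9, the DNA-binding part of the type I interferon complex, by 0.99 (edgeR FDR = 0.0109). Irf7 had 86 counts with T-bet and 32 without it, a ratio of 3.33 with a counting interval of 2.19 to 5.16. Its call (edgeR FDR = 0.0211) was lost without either T-bet + Plum library, GFP + GATA3 replicate 1 or T-bet + GATA3 replicate 1, at up to 0.0688. Irf3, the gene of highest TPM among them at 43.2, had a log2 FC of -0.10 (edgeR FDR = 0.507). The difference between Irf4 and the other IRF genes was not itself tested.

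**Figure D4:**
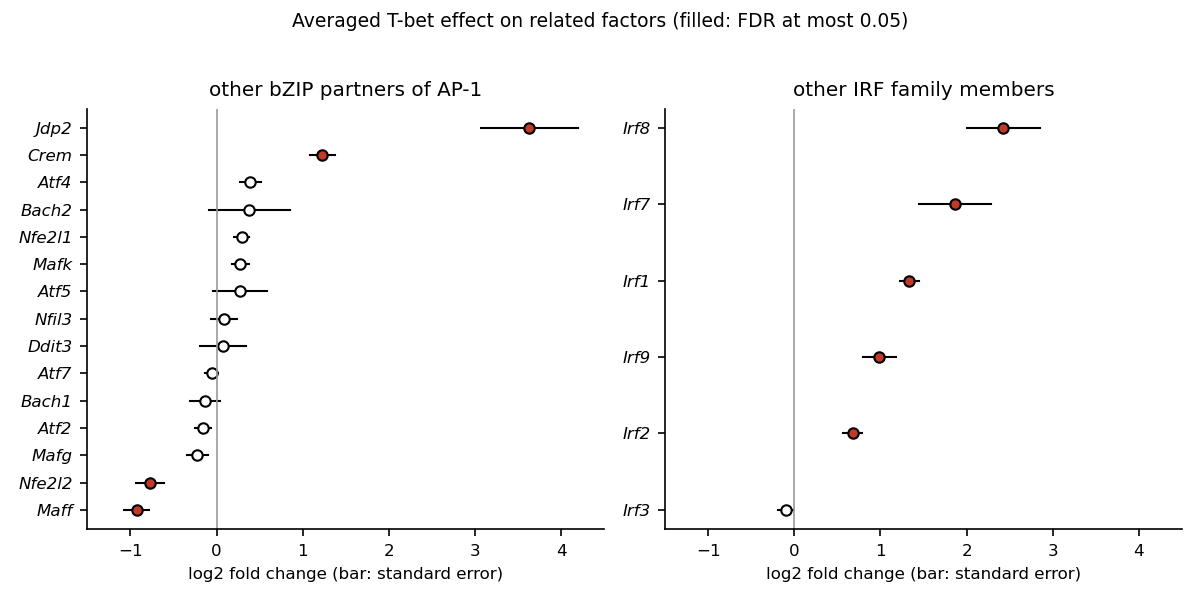
Averaged T-bet log2 FC of the tested genes among other bZIP partners of AP-1 (left) and other IRF genes (right), with standard errors; filled points have an edgeR FDR of at most 0.05. Jdp2 at 3.63 and Crem at 1.23 lie to the right and Maff at -0.92 and Nfe2l2 at -0.78 to the left, and of the IRF genes only Irf3 is open.

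Genes of the pathway that leads from protein kinase C and the MAP kinases to Fos and Jun were all measured, 22 of 22. Of these 5 rose, 3 fell and 14 were not called for the averaged T-bet effect, and the median log2 FC was 0.15. Among all genes 15.2% were called in either direction, and the median was 0.02. Map3k1, an upstream kinase of the JNK branch that acts on c-Jun, fell by 0.72 (edgeR FDR = 0.00686), and this was not called by limma on log2(TPM + 1) (FDR = 0.0706). Creb1, which binds CREs, had a log2 FC of 0.59 (edgeR FDR = 0.00587), but 0.24 with offsets for transcript length and 0.11 on the TPM scale, and was called in neither. Elk4, a ternary complex factor of serum response elements, fell by 0.53 (edgeR FDR = 0.0366) and the kinase gene Braf fell by 0.46 (edgeR FDR = 0.0180). The call of Elk4 was lost without either GFP + GATA3 library, GFP + Plum replicate 2, T-bet + Plum replicate 1 or T-bet + GATA3 replicate 1, and with offsets for transcript length, at up to 0.134. That of Braf was lost without either library of T-bet + Plum or GFP + GATA3 or without T-bet + GATA3 replicate 1, at up to 0.0790. Elk3, a relative of Elk4, rose by 0.46 (edgeR FDR = 0.0198), a call lost without either GFP + GATA3 library, T-bet + Plum replicate 2 or T-bet + GATA3 replicate 1, and by limma, at up to 0.0912.

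Other immediate-early and heat shock genes, which are known to respond to stimulation and handling, were compared between the stimulated lines. Without unstimulated cells their response itself was not measured. Of 17 genes 14 could be tested, and 5 rose, 1 fell and 8 were not called. Their median log2 FC was 0.29. Over all genes the share called was 15.2% and the median 0.02. T-bet log2 FCs by background are given for Egr1 and Egr3. The interaction of T-bet and GATA3 was called by edgeR for neither (unadjusted p = 0.00671 and 0.00332, edgeR FDR = 0.9999 for both). Egr1 had 1.31 without HA-GATA3 (edgeR FDR = 0.00331) and 0.49 with it (edgeR FDR = 0.139). Egr3, which passed the filter only through GFP + GATA3 and was chosen after its values were seen, had 22 and 21 counts there and 4 and 3 in T-bet + GATA3 (log2 FC -2.48, edgeR FDR = 0.0480). In GFP + Plum it had 7 and 5 counts, and in T-bet + Plum 7 and 9, with no call between them (edgeR FDR = 0.441). The growth-arrest gene Btg2 rose by 1.06 (edgeR FDR = 0.00412), the zinc-finger genes Egr2 and Egr1 by 1.02 and 0.90 (edgeR FDR = 0.000407 and 0.00167), and Myc by 0.79 (edgeR FDR = 0.00216). Ier2 also rose, by 0.53 (edgeR FDR = 0.00472). Jun and Junb are immediate-early genes as well, and the part of a general difference in the response in their rise was not tested. Of the chaperone genes, Hspa8 had 0.17 (edgeR FDR = 0.581), Hsp90aa1 fell by 0.38 (edgeR FDR = 0.0373, and up to 0.155 without any one library other than GFP + Plum replicate 1), and Hspa1a, Hspa1b and Hspb1 were too low to be tested.

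Genes known as targets of AP-1, or of BATF with IRF4, were measured as a list of 17, of which 13 could be tested. For the averaged T-bet effect 6 rose and 7 were not called, and the median log2 FC was 0.77. The share called among all genes was 15.2%, in either direction, and their median was 0.02. Without Prdm1 and Il4, which passed the filter only through lines where they were high, 4 rose and 7 were not called, with a median of 0.36. Il2, an NFAT and AP-1 target, was between 73.9 and 178 CPM without T-bet and between 266 and 493 CPM with it, a log2 FC of 1.65 (edgeR FDR = 0.000673). Csf2, which encodes GM-CSF, was between 6.14 and 53.3 CPM without T-bet and between 208 and 509 CPM with it, a log2 FC of 3.64 (edgeR FDR = 0.00248). Tnf and Cd69 rose by 0.77 and 0.90 (edgeR FDR = 0.000842 and 0.0139). Prdm1, which encodes BLIMP-1 and which BATF and IRF4 are known to induce in effector cells, had 39 counts with T-bet and 9 without it, a ratio of 5.37 with a counting interval of 2.56 to 12.6. Its call (edgeR FDR = 0.0233) was lost without either library of GFP + GATA3 or T-bet + GATA3, without T-bet + Plum replicate 2, by DESeq2 and by limma, at up to 0.179. Il4 was called (edgeR FDR = 0.0416), on 0 and 0 counts in GFP + Plum, 3 and 12 in T-bet + Plum, 0 and 12 in GFP + GATA3, and 25 and 23 in T-bet + GATA3, and this call was lost without any one library other than the GFP + GATA3 ones, at up to 0.189. Ctla4, Gzmb, Il17a and Il21 were too low to be tested. T-bet is known to act on several of these genes itself, and the part of AP-1 in their rise was not tested.

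Fosb and Irf4 each have several transcript models, and the split of their counts was described after the values were seen, with no test. Kallisto divides fragments shared by several models, so these shares are estimates. The Irf4 counts were divided between ENSMUST00000021784.9, of 450 codons, and ENSMUST00000110307.2, of 449 codons, which differ by 3 bases in length. The former held 71.8% and 31.9% of Irf4 counts in GFP + Plum, 9.01% and 57.3% in T-bet + Plum, 53.4% and 36.8% in GFP + GATA3, and 33.9% and 23.0% in T-bet + GATA3. The replicates lay far apart in GFP + Plum and in T-bet + Plum, and the ranges of the lines overlapped, except those of GFP + GATA3 and T-bet + GATA3.

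For Fosb, the model of the full protein, ENSMUST00000003640.3 with 338 codons, held 40.6% and 58.6% of counts in GFP + Plum, 58.6% and 61.0% in T-bet + Plum, 29.2% and 35.1% in GFP + GATA3, and 0% and 3.99% in T-bet + GATA3. Both T-bet + GATA3 libraries were below the 6 others. There the counts were on ENSMUST00000208326.1 with 299 codons, at 61.0% and 48.4%, and on ENSMUST00000208505.1 with 201 codons, at 33.5% and 39.0%. These models share most of their bases. The model of 237 codons, the length of the truncated protein ΔFosB, held at most 0.266% in any library.

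**Figure D5:**
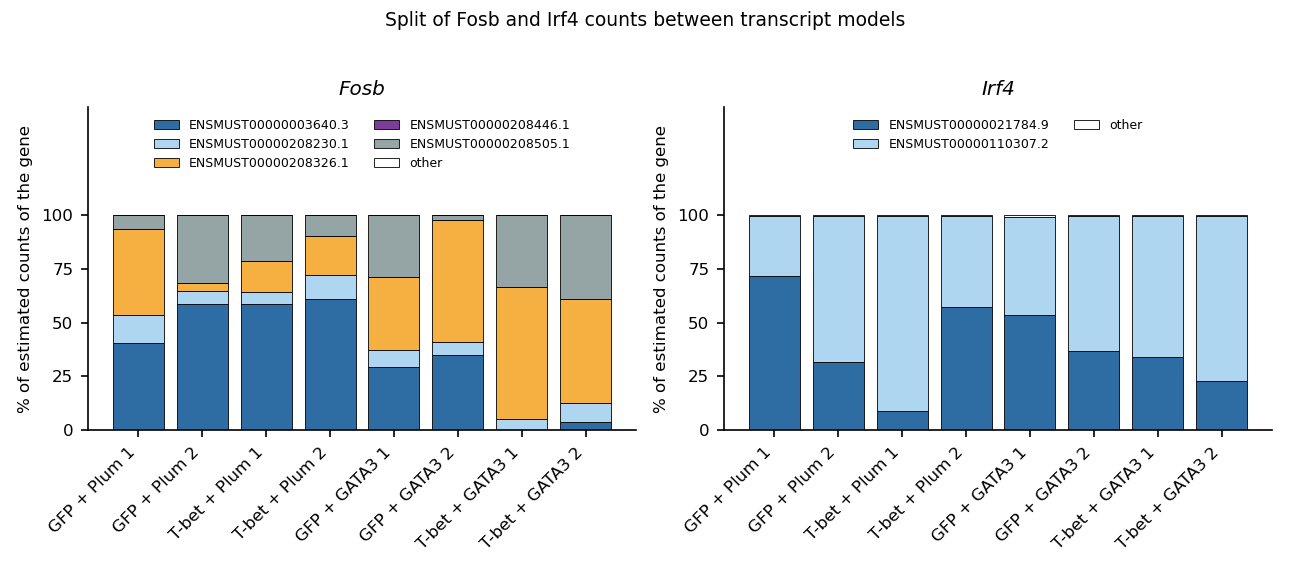
Share of the estimated counts of Fosb (left) and Irf4 (right) on each transcript model, in percent of the gene's counts, by library. The Fosb model ENSMUST00000003640.3 is at 0% and 3.99% in the T-bet + GATA3 libraries and between 29.2% and 61.0% elsewhere, and the 2 Irf4 models swing between replicates of one line.

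The genes most like Jun and Junb in pattern were named by Pearson's correlation of log2 CPM over the 8 libraries, as a description. The points share the T-bet difference, so a high value is common. Nearest to Jun were Serpinb9 (r = 0.990), which encodes an inhibitor of granzyme B, Mcur1 (r = 0.987) and Sp4 (r = 0.985). Serpinb9 was between 6.21 and 11.5 CPM without T-bet and between 31.5 and 49.3 CPM with it. Nearest to Junb were Use1 (r = 0.983), Pde7a (r = 0.980) and Med17 (r = 0.978), a subunit of Mediator. Jun and Junb correlated with each other at r = 0.912, and Jun with the remaining 6 members at between -0.37 and 0.40.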

How the data were processed

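Per the labels and the methods of the study, poly-adenylated RNA was sequenced with paired-end reads, and the authors trimmed reads with Trim Galore, checked them with FastQC and quantified transcripts with kallisto on GRCm38 (mm10) Gencode models. The deposited values are estimated counts, TPM, lengths and effective lengths (in bases) of 136535 transcripts per library, with no pooling. The methods name a later Gencode release than the deposited values carry. Versions of the tools and any strand setting are not given in the sources used here.

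Estimated counts and TPM were summed per gene, and counts were rounded. All 8 libraries entered one edgeR 4.0.16 quasi-likelihood fit in R 4.3.3 with TMM scaling, filterByExpr and Benjamini-Hochberg adjustment over 14791 genes, called at an FDR of at most 0.05. The averaged effects are the means of the 2 T-bet (or GATA3) contrasts. CPM are TMM-scaled. log2 CPM used a prior count of 2. A count of 3 was the floor, and intervals of count ratios are 95% and cover counting error only. Positions are those of Gencode M21, and promoters those of RefSeq. From each list, the 4 called genes with the largest change and the 2 of highest TPM were named, and other named list genes were chosen after their values were seen. A gene that this rule names is not reported here. The members and lists were chosen with earlier results of these data known. Limma 3.58.1 and DESeq2 1.42.0 were among the 20 alternatives. The test was tried on simulated data.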

Additional observations from a re-analysis of the deposited data

How the results depend on the processing

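The averaged T-bet effect called Jun and Junb in each alternative fit, and with the study's added limit of 1.5 on the log2 FC it called 1 member, Jun. Single comparisons were less stable. For T-bet + Plum versus GFP + Plum the number of members called was 0 by limma on log2(TPM + 1) and by a fit of the contrast's libraries alone, 1 with the added limit, and between 0 and 2 with one library left out. For T-bet + GATA3 versus GFP + Plum it was 0 with library size only, by limma, with the contrast alone and with the added limit, 2 without a filter and with protein-coding genes only, and 0 to 0 with one library left out. For T-bet + GATA3 versus GFP + GATA3 it was 2 with protein-coding genes or transcripts only, 0 by limma, and between 0 and 1 with one library left out. The cause was not tested. With the replicate number as a block, 2 members, Jun and Junb, were called in each of the last 2 comparisons and in the first, and no other count of members changed. Whether libraries with the same replicate number were harvested together is not given in the sources used here, and pairing was not tested. The differences between replicates were correlated between 2 lines at a time, across the 14791 genes, which are not independent. The correlation was from -0.0455 to 0.302, and was negative only for T-bet + Plum with T-bet + GATA3.

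Over all comparisons, members that were not called changed sign in 68 alternative values and were called in 6, and members that were called changed sign in 0 and lost the call in 28. Junb, between the lines with both factors and with T-bet alone, was -0.014 with library size only and -0.054 by limma, and between -0.036 and 0.10 with one library left out. For the averaged T-bet effect, Jund was -0.030 by limma. With one library left out, Fos was between -0.065 and 0.49, Jund between -0.090 and 0.23, Batf between -0.53 and 0.045, and Irf4 between -0.084 and 0.068. For the averaged GATA3 effect, Jund was -0.0017 with protein-coding transcripts only and between -0.12 and 0.19 with one library left out, and Fos was between -0.32 and 0.22. The interaction of Jun was -0.087 by limma and between -0.18 and 0.42 with one library left out. Depth limits Jun, Fos and Batf most, with at most 155 counts in any library, and Batf3 and Fosl1 gave no test.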

Other observations

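Of the T cell markers, 3 of the 9 that could be tested also rose with T-bet, beside 15.2% of all genes called in either direction. Lck, the proximal kinase of T cell receptor signalling, was between 33.1 and 62.2 CPM without T-bet and between 83.7 and 204 CPM with it, a log2 FC of 1.52 (edgeR FDR = 0.00868). Zap70, the kinase that acts after Lck, rose by 0.71 (edgeR FDR = 0.000801) and Cd3d by 0.50 (edgeR FDR = 0.00775). Lat and Ptprc, the markers of highest TPM, had log2 FCs of 0.25 and -0.24 (edgeR FDR = 0.0994 and 0.143). PMA and ionomycin enter the pathway below these kinases, and the part of these kinases in the levels of the members was not tested. Pdgfra fell by 1.81 (edgeR FDR = 0.000707), and the myeloid gene Lyz2 had 5 counts with T-bet and 40 without it, a ratio of 0.155 with a counting interval of 0.0477 to 0.392. Lyz2 passed the filter only through the lines without T-bet, where it was high.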
